A study of Homo sapiens with 18 samples.

Results

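The genes described here are 31 genes of cholesterol and fatty acid synthesis, out of 55765 gene symbols counted in OVCAR3 cells. OVCAR3 is an established line of high-grade serous ovarian carcinoma that grows attached to the dish. The 31 were taken by symbol, for what their products do in sterol and fatty acid metabolism, and all 31 were found in both count tables and passed the filter on low counts. The list was drawn up when values of these libraries were already known, and was in part selected on them: the genes were chosen by pathway after the decrease of THRSP with TSPAN7 IgA, in counts of these libraries, had been seen. Its counts and fold changes describe these cells and are no independent evidence about the pathway.

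The cells were kept in RPMI with 2% FBS and sequenced in 18 libraries, 3 in each of 6 groups. In a first series the cells received non-specific human IgA or non-specific human IgG, or no antibody. In a second series they received IgA against the neurotrophin BDNF or IgA against the tetraspanin TSPAN7, or no antibody. Antibodies were added at 0.5 µg/ml for 24 h according to the labels, and another description of the experiments gives a shorter incubation. All groups are the same cell line, so the libraries of a group are repeats within 1 line. In the study's own description the 3 repeats of the first series are experiments, and for the second it gives their number without saying what they are. The p-values weigh differences between groups against the spread among these libraries, and speak for no other line. The series were compared only within themselves, each antibody against the untreated cells, or the other antibody, of its own series. The question was which transcripts of lipid synthesis differed between cells with and without each antibody.

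Cells build cholesterol from acetyl-CoA through the mevalonate pathway, in which early enzymes make isoprenoid units and late enzymes turn squalene into sterol. Most of these enzymes are transcribed under SREBP-2, the product of SREBF2, while SREBP-1, the product of SREBF1, serves mainly the genes of fatty acid synthesis. Both are held in the endoplasmic reticulum by the INSIG proteins when sterols are plentiful and are released to the nucleus when sterols fall. The genes are usually read as a sensor of the sterol and lipid balance of a cell, and many carcinomas, ovarian ones included, make fatty acids of their own.

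The promoters of these genes are where SREBPs act, together with NF-Y and Sp1. RefSeq windows from 250 bases before to 50 bases after the start of transcription (GRCh38.p14, while the reads were aligned to GRCh37) were at hand for 27 of the 31 genes, in 38 windows. None was at hand for SQLE, FASN, FDFT1 and ACAT2. Stretches of 150 bases just before the start are shown for 4 genes that the values below turn on: INSIG1 (chr7:155297728-155297877, plus strand), HMGCS1 (chr5:43313413-43313562, minus strand), SREBF2 (chr22:41832955-41833104, plus strand) and THRSP (chr11:78063711-78063860, plus strand). They read 5′ to 3′ along the gene. Capitals mark, on either strand, the letters of the NF-Y box, the Sp1 box, the E-box and the core of the sterol element, which are spelled out after the sequences.
INSIG1: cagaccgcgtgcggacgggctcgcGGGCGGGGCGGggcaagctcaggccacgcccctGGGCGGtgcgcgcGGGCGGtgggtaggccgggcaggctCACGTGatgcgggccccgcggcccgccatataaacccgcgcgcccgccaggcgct
HMGCS1: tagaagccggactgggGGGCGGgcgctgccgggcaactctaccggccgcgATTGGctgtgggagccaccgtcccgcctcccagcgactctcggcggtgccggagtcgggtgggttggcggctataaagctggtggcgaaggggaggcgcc
SREBF2: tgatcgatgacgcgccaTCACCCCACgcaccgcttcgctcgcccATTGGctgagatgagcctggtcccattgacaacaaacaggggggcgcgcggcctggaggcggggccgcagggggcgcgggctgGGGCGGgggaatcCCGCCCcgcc
THRSP: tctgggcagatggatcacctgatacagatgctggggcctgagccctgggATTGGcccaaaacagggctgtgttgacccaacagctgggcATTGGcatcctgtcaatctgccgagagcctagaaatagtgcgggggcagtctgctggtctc

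Each motif was searched as letters on both strands of the full windows, so that the reverse complement counted too. The NF-Y box CCAAT was present for 20 of the 27 genes (74.1%), against 39.7% of the 27305 genes with a window and 43.2% of the 10870 such genes tested in the first series. The Sp1 box GGGCGG was present for 24 of 27 (88.9%), against 48.3% and 75.8%. The sterol core TCACCCCAC was present for SREBF2 alone (3.7%, against 0.535% and 0.561%), and the looser TCACNCCAC, which includes it, for no further gene (1.39% and 1.56%). The E-box CACGTG was present for INSIG1 and LSS (7.41%, against 8.77% and 12.1%). THRSP carried the NF-Y box and no match to the others. For HMGCS1 the stretch shown is from the window with the NF-Y box, and another window of this gene held only the Sp1 box. These matches describe the letters of the windows and locate no binding site. Elements spelled otherwise were not searched, so a gene without a match may still carry one.

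Library totals ranged from 27920733 to 47381836 counts. IgA replicate 3 of the first series stood apart, with 19.1% of its counts from mitochondrial genes against 5.75% to 8.32% in the other 8 libraries of that series and 8.60% to 10.2% in the second. The biological spread was also wider in the first series, with a common dispersion of 0.0307 against 0.00303, so smaller changes could be called in the second. The spread differed between groups. The chi-square of raw counts between replicates, per degree of freedom, was 67 to 232 with IgA. It was 6.6 to 25 with IgG, 12.5 to 23 in untreated cells of that series and 3.91 to 12.2 in the second. All 11 OVCAR3 markers, such as MUC16, PAX8 and KRT7, were tested in both series. Of these, 2 were higher and 4 lower with IgA than with IgG, among them CLDN3 and WT1. With BDNF IgA 4 were higher and none lower than in untreated cells. With TSPAN7 IgA 1 was higher, KRT7, and 3 lower, MUC16 at -0.47, CLDN3 at -0.35 and WT1 at -0.30 on the log2 scale. Between TSPAN7 IgA and BDNF IgA 1 was higher and 5 lower. Of all genes tested, 12.6% were called higher and 11.6% lower with IgA against IgG. The shares were 4.49% and 3.18% with BDNF IgA and 4.46% and 4.08% with TSPAN7 IgA against untreated cells. Between TSPAN7 IgA and BDNF IgA they were 3.42% and 4.5%. The summed level of the 11 was 194000 to 200700 normalised counts in the TSPAN7 IgA libraries, below the 215300 to 230500 of the untreated ones, and 217600 to 261600 with BDNF IgA. In the first series the sums overlapped, at 164400 to 256200 with IgA, 168100 to 210900 with IgG and 175100 to 226900 untreated. Leukocyte markers summed to between 29.3 and 77.7 normalised counts per library, with CD3E and MS4A1 at no more than 2 counts in any library. PTPRC, the leukocyte phosphatase, was called higher with TSPAN7 IgA, at 10 to 24 counts a library against 6 to 10 in untreated cells (adjusted p = 0.049). Of 4 fibroblast markers, 3 were tested in the first series, and COL1A1 and COL1A2 were higher with IgA than with IgG. The list summed to 2393 to 4875 in the IgA libraries against 2058 to 2283 with IgG. Against untreated cells, with sums of 2215 to 2463 that overlap those of IgA, no fibroblast marker was called. No fibroblast marker was at 0 in a whole group. The part of these differences in the results below was not tested.

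Levels are given as normalised counts, that is raw counts divided by each library's effective size and multiplied by its mean over the series. In such bulk libraries fewer cells of a kind and less RNA per cell cannot be told apart. Between genes the levels are compared only per kilobase of exon. On that scale SCD, the stearoyl-CoA desaturase, stood highest in untreated cells of both series, at 4961 ± 282 (SD, n = 3) in the first and 4307 ± 108 in the second. FASN, the fatty acid synthase, followed at 2796 ± 165 and 3398 ± 108, and these neighbours did not overlap in either series. HMGCS1, FDPS and ACLY came next in both series, with ACLY at the fifth place of the first and the third of the second. In the first series ACLY (976.6 ± 102) and FDFT1 (970.1 ± 97.0) differed by less than their spread, as did ACAT2 (649.4 ± 70.4), SQLE (647.3 ± 80.7) and SREBF1 (644.5 ± 14.8). In both series the lowest 4 were MVK, HSD17B7, CYP51A1 and ACSL5. MVK, CYP51A1 and ACSL5 overlap other genes and HSD17B7 has a near copy, so these ranks may depend on how shared reads were counted. ACSL5 lay at 7.07 ± 3.49 in the first and 47.6 ± 6.57 in the second, and these levels come from separately scaled tables.

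With non-specific IgA most of the sterol genes were higher than in cells given IgG. Of the 31 genes, 17 rose (54.8%) and 3 fell (9.68%), where 12.6% of the 18012 genes tested were called higher and 11.6% lower. The median log2 fold change of the 31 was 0.52, against -0.015 over all genes tested. Against untreated cells 15 rose (48.4%) and 3 fell, where 12.9% of all genes were higher and 12.1% lower, with a median of 0.46. These comparisons share the IgA libraries and are not separate evidence. Calls are at an adjusted p under 0.05. Without IgA replicate 3, 15 rose and 3 fell against IgG, and 15 rose and 4 fell against untreated cells. Scaling to library size alone lowered the median of all genes to -0.25 and -0.22, and the split of the members then became 13 higher and 6 lower in both comparisons. Of the 18012 genes, 873 were then higher and 3631 lower against IgG, and 1001 and 3296 against untreated cells. Without IgG replicate 2, 1 member in place of 3 was lower than with IgG. Over all genes 1280 of 18540 were then lower, against 2095 of 18012 with all libraries.

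**Figure D1:**
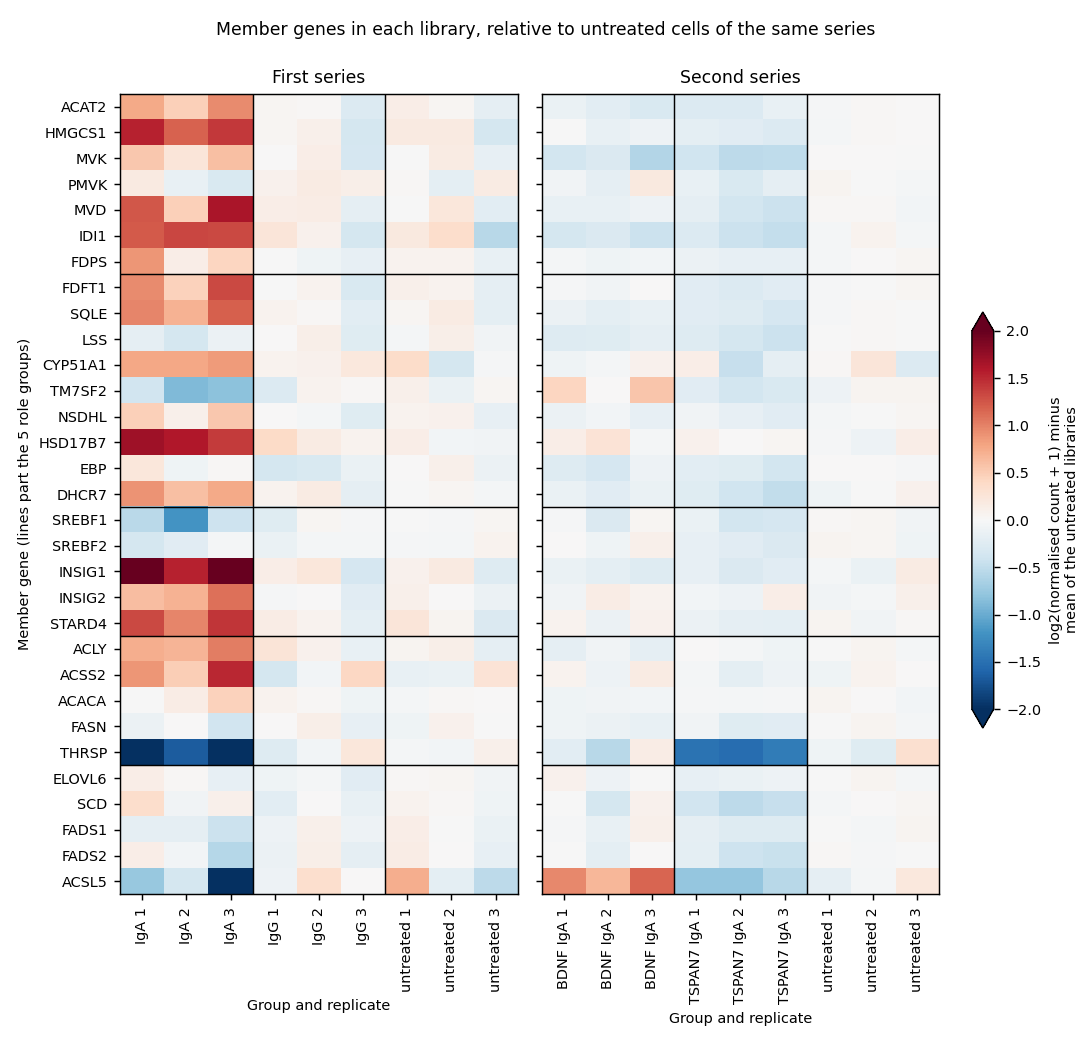
Heat map of the 31 genes (rows, in 5 role groups) in the 18 libraries (columns), as log2(normalised count + 1) minus the mean of the 3 untreated libraries of the same series; colours stop at -2 and 2. Most sterol genes are red in the 3 IgA libraries of the first series, and THRSP is blue in these and in the 3 TSPAN7 IgA libraries.

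The early sterol enzymes, from acetyl-CoA to farnesyl diphosphate, were higher in 6 of 7 cases against IgG and in 5 of 7 against untreated cells. HMGCS1, the cytosolic HMG-CoA synthase (chr5:43287572-43313614 on GRCh37, minus strand), had 30100, 23380 and 27430 normalised counts in the 3 IgA libraries, 10610, 11080 and 8099 with IgG and 11660, 11760 and 8069 in untreated cells. All IgA libraries lay above the other 6. The log2 fold change was 1.44 ± 0.16 (SE, adjusted p = 8.3e-05) against IgG and 1.36 ± 0.16 (SE, adjusted p = 0.00011) against untreated cells. IDI1, the isopentenyl diphosphate isomerase, had 5559, 5987 and 5921 with IgA, 2813, 2511 and 1860 with IgG and 2723, 3033 and 1623 untreated, again without overlap. Its log2 fold changes were 1.28 ± 0.20 (SE, adjusted p = 0.00078) and 1.24 ± 0.20 (SE, adjusted p = 0.00084). ACAT2, the cytosolic thiolase that opens the pathway, had 2878, 2376 and 3275 with IgA, 1761, 1731 and 1407 with IgG and 1878, 1751 and 1512 untreated. It rose by a log2 fold change of 0.80 ± 0.14 against IgG (adjusted p = 0.0015). MVK, the mevalonate kinase, was nearer the threshold, with 535, 437 and 556 against 369.6, 404 and 291 with IgG and 366, 414 and 327 untreated. The IgA libraries did not overlap the others, but only the fold change against IgG was called (log2 fold change 0.52 ± 0.17, SE, adjusted p = 0.04), and that against untreated cells was 0.46 ± 0.17 (SE, adjusted p = 0.061). MVD, the mevalonate diphosphate decarboxylase, rose by 1.15 on the log2 scale against IgG, and FDPS, the farnesyl diphosphate synthase, by 0.60. PMVK, the phosphomevalonate kinase, was the early gene without a call, at -0.20 and -0.08 (adjusted p = 0.37 and 0.75). IDI1 and FDPS have close copies elsewhere in the genome, so their counts depend on how reads shared with them were handled.

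Of the 9 genes for the late steps, from farnesyl diphosphate to sterol, 6 rose and 1 fell against IgG, and 5 rose and 1 fell against untreated cells. HSD17B7, a reductase acting in the removal of methyl groups from lanosterol, had 575, 539.6 and 469 normalised counts with IgA, 229.6, 198 and 184 with IgG and 193, 169 and 168 untreated. The IgA libraries were all above the others, at log2 fold changes of 1.37 ± 0.16 (SE, adjusted p = 0.00011) and 1.58 ± 0.16 (SE, adjusted p = 4e-05). This gene too has a near copy in the genome. DHCR7, which makes cholesterol in the last step of the main route, had 2220, 1810 and 2005 with IgA, 1247, 1327 and 1053 with IgG and 1182, 1223 and 1157 untreated, without overlap. Its log2 fold change against IgG was 0.73 ± 0.12 (SE, adjusted p = 0.00089). FDFT1, the squalene synthase, and SQLE, the squalene epoxidase, rose by 1.02 and 1.01 against IgG. CYP51A1, the lanosterol demethylase, rose by 0.68 against IgG. NSDHL, another enzyme in the removal of methyl groups, rose by 0.47 against IgG, with 0.38 against untreated cells not called (adjusted p = 0.057). TM7SF2, a sterol reductase, went the other way. It had 667, 469.7 and 491 with IgA, 720.5, 912 and 879.5 with IgG and 928, 793 and 889 untreated, all IgA libraries below the rest, for a log2 fold change of -0.62 ± 0.15 (SE, adjusted p = 0.011) against IgG. LSS, the lanosterol synthase, had 2300, 2055 and 2417 with IgA, 2637, 2832 and 2206 with IgG and 2531, 2828 and 2483 untreated. The groups overlapped against IgG, and neither fold change was called (-0.18 ± 0.12 and -0.21 ± 0.12, SE). EBP, the sterol isomerase, was at 0.32 and 0.06 and was not called either.

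INSIG1 changed more than any other member that rose. This sterol sensor of the endoplasmic reticulum (chr7:155089486-155101945 on GRCh37, plus strand) had 5029, 3198 and 6244 normalised counts with IgA, 1197, 1279 and 867 with IgG and 1157, 1244 and 910.4 untreated. Even the lowest IgA library lay above all 6 others. The log2 fold change was 2.11 ± 0.22 (SE, adjusted p = 4.9e-05) against IgG, a 4.32-fold level, and 2.13 ± 0.22 (SE, adjusted p = 4.3e-05) against untreated cells. STARD4, a carrier of cholesterol between membranes, had 2287, 1810 and 2483 with IgA, 1014, 966 and 802 with IgG and 1088, 949 and 751 untreated, which gave log2 fold changes of 1.24 ± 0.16 and 1.24 ± 0.16 (SE, adjusted p = 0.00019 and 0.00017). INSIG2, the paralog of INSIG1, rose by 0.90 and 0.82. SREBF1 and SREBF2, the genes of the transcription factors themselves, did not rise. SREBF1 had 3636, 2315 and 3971 with IgA, 4465, 5447 and 5246 with IgG and 5282, 5199 and 5439 untreated, so that all 3 IgA libraries were below the rest. Its log2 fold changes were -0.61 ± 0.16 (SE, adjusted p = 0.015) and -0.68 ± 0.16 (SE, adjusted p = 0.0086). SREBF2 had 5104, 5561 and 6336 with IgA, 5965, 6373 and 6375 with IgG and 6426, 6340 and 6829 untreated, and was not called (-0.14 ± 0.099 and -0.20 ± 0.099, SE; adjusted p = 0.33 and 0.15).

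The fatty acid genes were more divided. Of the 5 genes of synthesis proper 2 rose and 1 fell in both comparisons. ACLY, the ATP citrate lyase, rose by 0.75 and 0.82 on the log2 scale, and ACSS2, the acetyl-CoA synthetase of the cytosol and nucleus, by 0.99 and 1.01. FASN and ACACA, the acetyl-CoA carboxylase, overlapped between groups, at -0.15 and 0.21 against IgG (adjusted p = 0.40 and 0.21). THRSP, a small protein linked to the induction of lipogenic genes (chr11:77774907-77779397 on GRCh37, plus strand), fell most of the 31. It had 68.4, 162 and 103 normalised counts with IgA, 430.3, 498 and 601 with IgG and 500.4, 494 and 555 untreated. The highest IgA library was far under the lowest of the others, and the log2 fold changes were -2.19 ± 0.25 (SE, adjusted p = 9.9e-05) and -2.21 ± 0.25 (SE, adjusted p = 8.7e-05). None of the 5 genes of elongation, desaturation and activation was called. SCD had 33000, 24830 and 27740 with IgA, 22540, 26250 and 23560 with IgG and 27290, 26380 and 24390 untreated, and the groups overlapped (0.24 ± 0.12 and 0.13 ± 0.12, SE). FADS2, a desaturase of polyunsaturated fatty acids, had 4009, 3532 and 2472 with IgA, 3356, 3947 and 3237 with IgG and 4055, 3681 and 3265 untreated, with IgA replicate 3 the lowest of all. FADS1, its neighbour and relative, and ELOVL6, the elongase of palmitate, were at -0.23 and 0.12 against IgG. ACSL5, which activates long fatty acids, was low throughout this series, with 15.7, 21 and 1.58 with IgA, 25.2, 34.6 and 27.4 with IgG and 45.7, 23.5 and 18.5 untreated, and its fold change of -1.12 ± 0.64 (SE) was not called (adjusted p = 0.22).

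**Figure D2:**
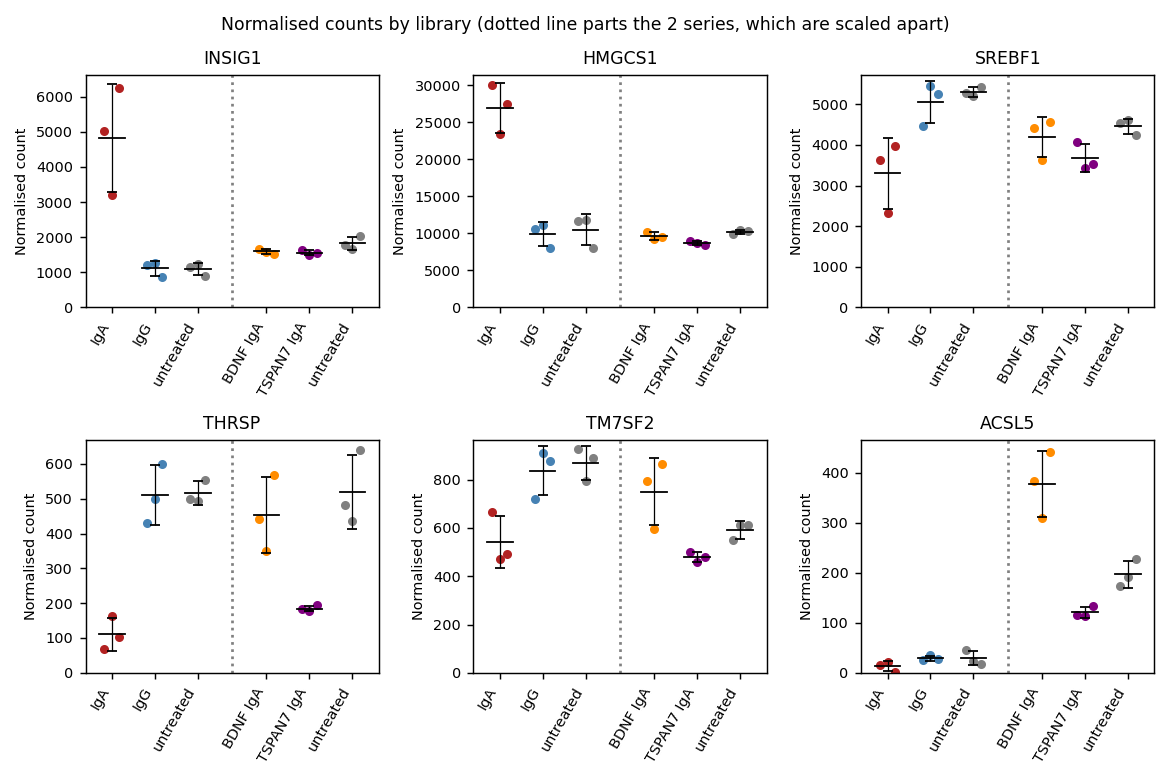
Normalised counts (vertical axes, from 0) of 6 genes by group, 1 dot per library, with the mean and SD of 3 libraries; the dotted line parts the 2 separately scaled series. INSIG1 and HMGCS1 are raised with IgA in the first series, THRSP is low with IgA and with TSPAN7 IgA, and ACSL5 moves in opposite directions with BDNF IgA and TSPAN7 IgA.

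No difference between cells given IgG and untreated cells was detectable in these genes with 3 libraries a group. None of the 31 was called in either direction, and edgeR called 0% of the 18012 genes higher and 0% lower, with 89 genes at an unadjusted p under 0.05. None of the 31 was called by DESeq2. These fits drew the spread from all libraries of the series, the more variable IgA ones included. A fit of only the 6 libraries compared also called 0 of 17537 genes higher and 0 lower. The median log2 fold change of the 31 was -0.038. INSIG1 differed by 0.01 ± 0.21 (SE), HMGCS1 by -0.08 ± 0.16 and THRSP by -0.02 ± 0.23 on the log2 scale. The largest difference was that of EBP, at -0.26 ± 0.12 (SE). In IgG replicate 3 and in untreated replicate 3, 7 of the 31 genes lay above the untreated mean, against 17 to 24 in the other 4 libraries of these groups. The median over the 31 of the log2 level relative to the untreated mean was -0.17 in the former and -0.12 in the latter, against 0.01 to 0.08 in the other 4 libraries, and 0.54, 0.15 and 0.53 in the 3 IgA libraries. Over all genes tested, the deviations of IgG replicate 3 and untreated replicate 3 from their group means correlated at 0.247. Whether the 31 stood apart from other genes in these libraries was not tested.

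With TSPAN7 IgA every called member was lower than in untreated cells, most of them by modest amounts. THRSP is left out of the counts that follow, since its decrease here was what the list was drawn up after. Of the other 30 genes 19 fell (63.3%) and none rose, where 4.08% of the 18732 genes tested were lower and 4.46% higher than in untreated cells. The median log2 fold change was -0.23, against -0.001 over all genes. By role, 6 of 7 early and 5 of 9 late sterol genes fell, as did 3 of 5 genes of sensing and transport, 1 of the remaining 4 of fatty acid synthesis and 4 of 5 of elongation, desaturation and activation. Apart from ACSL5 none of the 19 fell by more than 0.48 on the log2 scale. The count moved when single libraries were left out. Without TSPAN7 IgA replicate 2, 11 of the 30 were called, and without replicate 3, 12, all of them lower. Over all genes the number lower dropped too, from 764 of 18732 to 328 of 19183 and 436 of 19188. With THRSP included, the median log2 fold change of the members was -0.226 and -0.229 in these refits, against -0.233 with all libraries. The summed OVCAR3 markers were lower in the TSPAN7 IgA libraries, as given above, and their part in the members' values was not tested.

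THRSP had 183, 177 and 194 normalised counts with TSPAN7 IgA and 482, 435 and 640.2 in untreated cells, a log2 fold change of -1.50 ± 0.15 (SE) that is given without a test, since it was known when the list was made. Every TSPAN7 IgA library lay far below every untreated library. ACSL5 had 115, 114 and 133 against 173, 191 and 227, without overlap, at a log2 fold change of -0.71 ± 0.15 (SE, adjusted p = 0.0039). THRSP and ACSL5 thus lay lower in all 3 TSPAN7 IgA libraries. SCD, the most abundant member per length, had 17410, 15770 and 16380 against 22020, 22600 and 23150 (log2 fold change -0.45 ± 0.071, SE, adjusted p = 0.00028). FADS2 had 3081, 2661 and 2603 against 3618, 3478 and 3538 (log2 fold change -0.35 ± 0.061, SE, adjusted p = 0.00081). In both desaturases the 3 libraries with antibody lay below the 3 without. FADS1 fell by 0.23 on the log2 scale, and FASN by 0.18, while ELOVL6, ACLY, ACSS2 and ACACA were between -0.13 and -0.03 and were not called.

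Among the sterol enzymes MVK fell most, with 382, 351 and 353 normalised counts against 506, 506 and 501 (log2 fold change -0.48 ± 0.090, SE, adjusted p = 0.0016). IDI1 had 2511, 2266 and 2201 against 2983, 3204 and 2964 (log2 fold change -0.39 ± 0.056, SE, adjusted p = 9e-05). HMGCS1 had 8926, 8700 and 8467 against 9921, 10440 and 10310 (log2 fold change -0.23 ± 0.045, SE, adjusted p = 0.0021). These early enzymes were lower in every TSPAN7 IgA library than in any untreated one. ACAT2 had 1646, 1638 and 1793 against 1950, 2026 and 1998 (log2 fold change -0.23 ± 0.057, SE, adjusted p = 0.011), also without overlap. DHCR7 had 1273, 1141 and 1078 against 1429, 1506 and 1602 (log2 fold change -0.38 ± 0.066, SE, adjusted p = 0.00075). LSS had 2743, 2574 and 2451 against 3279, 3327 and 3257 (log2 fold change -0.34 ± 0.049, SE, adjusted p = 7.9e-05), and is a member that was not called with IgA in the first series. MVD, FDPS, FDFT1, SQLE and EBP were also called and fell by 0.15 to 0.32. TM7SF2 had 502, 459.5 and 478 against 549, 612 and 611, apart from each other but not called (log2 fold change -0.30 ± 0.10, SE, adjusted p = 0.085). HSD17B7, with 224, 211 and 215 against 208, 195 and 230.3, overlapped (0.04 ± 0.12, SE). PMVK, CYP51A1 and NSDHL were between -0.21 and -0.15 and were not called.

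Of the 5 genes of sensing and transport, 3 were lower with TSPAN7 IgA. SREBF1 had 4066, 3441 and 3539 normalised counts against 4529, 4604 and 4249 (log2 fold change -0.28 ± 0.070, SE, adjusted p = 0.016). SREBF2 had 6271, 6003 and 5738 against 7266, 7231 and 6599 (log2 fold change -0.23 ± 0.052, SE, adjusted p = 0.0078). INSIG1 had 1633, 1490 and 1551 against 1781, 1672 and 2039 (log2 fold change -0.23 ± 0.066, SE, adjusted p = 0.03). All 3 were lower without overlap, and SREBF1 and INSIG1 each lost the call when 1 of 4 libraries was left out, with an adjusted p of 0.12 and 0.16 without TSPAN7 IgA replicate 2. STARD4 had 985, 945 and 936 against 1112, 1016 and 1085, below without overlap but not called (log2 fold change -0.17 ± 0.067, SE, adjusted p = 0.14). INSIG2 was at -0.01.

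**Figure D3:**
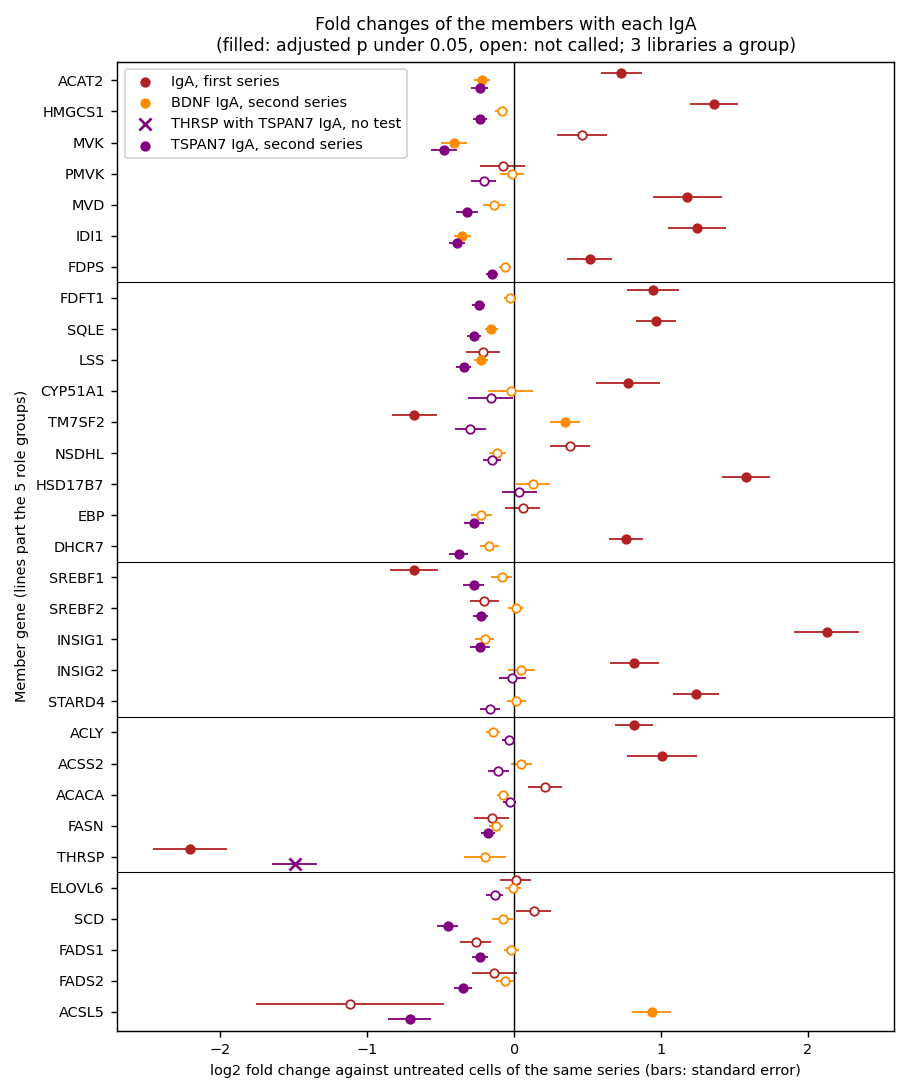
log2 fold change of each of the 31 genes against untreated cells of its own series (horizontal axis), with standard errors, for IgA (first series), BDNF IgA and TSPAN7 IgA (second series, sharing their untreated libraries); filled points have an adjusted p under 0.05, and the cross is THRSP with TSPAN7 IgA, given without a test. INSIG1 reaches 2.13 with IgA and -0.23 with TSPAN7 IgA, and THRSP is at -2.21 and -1.50.

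For 13 of the 31 genes (41.9%) all IgA libraries lay above, and all libraries of at least 1 specific IgA below, the untreated libraries of their own series. Of the 17548 genes tested in both series 3.17% had that pattern and 3.13% the reverse one, which no member had. Taken singly, IgA lay above its untreated libraries for 54.8% of the 31 and 20.1% of the 17548. At least 1 specific IgA lay below for 83.9% and 21.4%, THRSP included. The joint count is to be read beside these separate shifts. The responses of the series were not tested against each other.

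With BDNF IgA 7 members were called. Against untreated cells 2 of the 31 rose (6.45%) and 5 fell (16.1%), where 4.49% of all genes tested were higher and 3.18% lower, and the median log2 fold change of the 31 was -0.078. This comparison uses the same untreated libraries as that with TSPAN7 IgA. ACSL5 rose, with 383, 309.6 and 441 normalised counts against 173, 191 and 227, all 3 libraries above the untreated ones (log2 fold change 0.94 ± 0.13, SE, adjusted p = 8.7e-05). TM7SF2 had 794, 595 and 864 against 549, 612 and 611, in which replicate 2 lay among the untreated libraries, and was called just under the threshold (log2 fold change 0.35 ± 0.10, SE, adjusted p = 0.038). The 5 that fell were all sterol enzymes. MVK had 392, 412 and 334 against 506, 506 and 501 (log2 fold change -0.41 ± 0.089, SE, adjusted p = 0.0058), and IDI1 had 2394, 2507 and 2271 against 2983, 3204 and 2964 (log2 fold change -0.35 ± 0.056, SE, adjusted p = 0.00038). LSS had 2755, 2791 and 2893 against 3279, 3327 and 3257 (log2 fold change -0.23 ± 0.048, SE, adjusted p = 0.0055), and ACAT2 had 1819, 1715 and 1604 against 1950, 2026 and 1998 (log2 fold change -0.22 ± 0.056, SE, adjusted p = 0.019). These 4 genes did not overlap between the groups. SQLE fell by 0.16 on the log2 scale (adjusted p = 0.043). The count depends on single libraries, with 3 to 5 genes lower and 1 or 2 higher when a library was left out. It was 3 lower without untreated replicate 3. Over all genes the number lower was 596 of 18732 with all libraries and 364 of 19155 without untreated replicate 3. Without BDNF IgA replicate 2 it was 1293 of 19179, and in the other refits 293 to 377. TM7SF2 was no longer called without BDNF IgA replicate 1 or 3, or without any 1 of the untreated libraries. INSIG1, at 1668, 1585 and 1533 against 1781, 1672 and 2039, lay below without overlap but was not called (log2 fold change -0.20 ± 0.066, SE, adjusted p = 0.067). HMGCS1 had 10190, 9189 and 9568 against 9921, 10440 and 10310, and THRSP had 441, 349.6 and 568 against 482, 435 and 640.2. SREBF1 had 4407, 3640 and 4566 against 4529, 4604 and 4249, and SREBF2 had 7071, 6640 and 7546 against 7266, 7231 and 6599. All 4 overlapped and none was called. DHCR7 had 1377, 1287 and 1373 with BDNF IgA and SCD had 22560, 17770 and 23890. FADS2 had 3530, 3100 and 3546, STARD4 had 1121, 984 and 1140 and HSD17B7 had 231, 256 and 205. None of these 5 was called against the untreated values given above, and only DHCR7 did not overlap them.

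The 2 specific antibodies were also compared with each other. Leaving THRSP out again, 8 of the 30 genes were lower with the TSPAN7 antibody than with the BDNF antibody (26.7%) and none higher, where 4.5% of all genes were lower and 3.42% higher, with a median log2 fold change of -0.13. ACSL5 differed most, by -1.65 ± 0.14 (SE, adjusted p = 2.5e-06), having fallen with TSPAN7 IgA and risen with BDNF IgA. THRSP differed by -1.30 ± 0.16 (SE, in the same TSPAN7 IgA libraries and so with no test), TM7SF2 by -0.65 ± 0.10 (SE, adjusted p = 0.00052) and SCD by -0.37 ± 0.071 (SE, adjusted p = 0.0024). In these 4 genes every TSPAN7 IgA library lay below every BDNF IgA library. FADS2 differed by -0.29 ± 0.061 (SE, adjusted p = 0.0061), SREBF2 by -0.24 ± 0.052 (SE, adjusted p = 0.0072), and FDFT1, FADS1 and HMGCS1 by -0.21, -0.21 and -0.15. IDI1, MVK and ACAT2, lower than in untreated cells with both antibodies, were not called between them, at -0.04 ± 0.057, -0.07 ± 0.092 and -0.02 ± 0.057 (SE). BDNF IgA replicate 2 had the lowest THRSP, SCD, TM7SF2 and ACSL5 of its group. Without it 14 of the 30 were lower and 1 was higher. Of all genes tested, 1722 of 19179 were then lower and 1554 higher, against 843 and 641 of 18732 with all libraries. Without BDNF IgA replicate 3 or TSPAN7 IgA replicate 2 or 3 the number lower was 5 of the 30. Over all genes 286, 308 and 457 were lower in these refits. By role, 4 of 5 genes of elongation, desaturation and activation were among the 8, against 1 of 7 early sterol genes, 2 of 9 late ones, 1 of 5 of sensing and transport and none of the 4 of fatty acid synthesis.

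**Figure D4:**
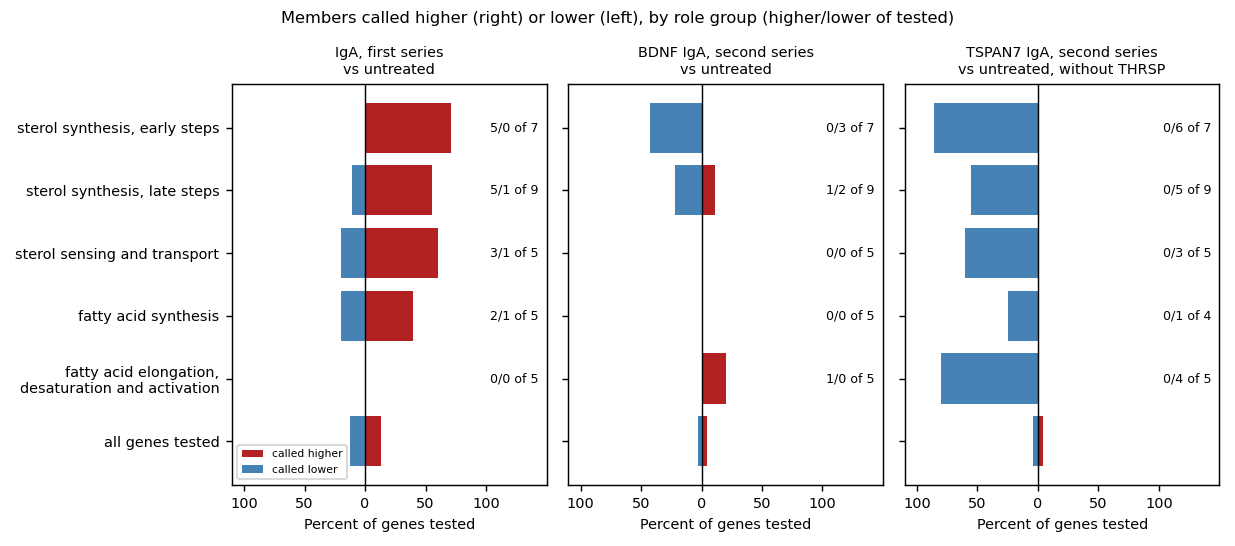
Percent of the tested genes of each role group called higher (to the right) or lower (to the left) than in untreated cells of the same series, with all genes tested in the bottom row and counts beside the bars; THRSP is left out for TSPAN7 IgA. With IgA 5 of 7 early sterol genes are higher, and with TSPAN7 IgA 6 of 7 are lower.

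Genes of neighbouring pathways were counted in lists written down with earlier results of these data known. The shares of all genes called in either direction, against which these counts are to be read, were 12.6% up and 11.6% down for IgA against IgG, 4.49% and 3.18% for BDNF IgA and 4.46% and 4.08% for TSPAN7 IgA against untreated cells. Several of the small counts lie near these shares. Among 12 other sterol and isoprenoid genes, 3 rose against IgG and none fell (median log2 fold change 0.03). MSMO1, the sterol methyl oxidase, rose by 1.76 ± 0.16 (SE, adjusted p = 2.2e-05), C14orf1, a scaffold of the demethylation enzymes, by 0.50 ± 0.12 and SC5D, the lathosterol desaturase, by 0.47 ± 0.12. None of the 12 was called with BDNF IgA or TSPAN7 IgA. Of 15 genes of SREBP cleavage and lipid nuclear receptors, 2 rose and 3 fell against IgG, with PPARG, a receptor known from fat cells, at 1.30 ± 0.21. The 14 genes of cholesterol export, storage and trafficking gave 3 higher and 2 lower of 12 tested. The transporters ABCG1 and ABCA1 went in opposite directions, at 1.25 ± 0.24 and -0.92 ± 0.12, and NCEH1, a cholesterol ester hydrolase, rose by 1.28 ± 0.24. NCEH1 was also higher with TSPAN7 IgA than without antibody, by 0.39 ± 0.054.

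Of 24 other genes of fatty acid synthesis and elongation, 23 were tested, and 8 rose and 3 fell with IgA against IgG. ACSL4, which activates arachidonic acid, rose by 0.90 ± 0.12 (SE), and ACACB, the acetyl-CoA carboxylase found at mitochondria, changed by -0.76 ± 0.14. With TSPAN7 IgA 1 of the 23 fell, SLC25A1, the citrate carrier of mitochondria, at -0.20 ± 0.059. Of 19 genes of triglyceride synthesis and lipid droplets, 17 were tested, and 3 rose and 2 fell against IgG. G0S2, an inhibitor of triglyceride lipase, rose by 3.30 ± 0.36 and MGLL, the monoglyceride lipase, by 1.61 ± 0.20. MGLL was higher with TSPAN7 IgA as well, at 0.32 ± 0.047 against untreated cells. Of 20 genes of fatty acid oxidation 1 rose and 5 fell against IgG, CPT2, a carnitine palmitoyltransferase, by -0.72 ± 0.18, and with TSPAN7 IgA 4 fell and none rose against untreated cells. PDK4, a kinase that restrains glucose oxidation, was at -0.42 ± 0.12 with TSPAN7 IgA and 0.65 ± 0.12 with BDNF IgA. Against untreated cells, IgA gave 4 higher and none lower of the other sterol genes, 4 and 3 of the cleavage and receptor genes, 3 and 2 of the trafficking genes, 7 and 2 of the other fatty acid genes, 3 and 2 of the triglyceride genes and 1 and 6 of the oxidation genes. With BDNF IgA the called genes were PPARA, LIPA, VLDLR, ACSL4, CPT1C and PDK4, all higher, and ELOVL5, lower. With TSPAN7 IgA the called genes also included MBTPS2 and AGPAT3, higher, and LPIN1, CPT2 and HADHA, lower.

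Some members overlap other genes, and the sources do not say that strand was used in counting, so reads of such pairs cannot be told apart. The genes in this paragraph were looked up after the members' values were seen. SOD2, the mitochondrial superoxide dismutase, overlaps ACAT2 on the other strand and rose with IgA by 1.88 ± 0.24 (SE) against IgG, more than ACAT2 itself, while with TSPAN7 IgA it was at 0.19 ± 0.056 where ACAT2 fell. RAI1 overlaps SREBF1 on the other strand and changed by -0.76 ± 0.12 against IgG, near the value of SREBF1, and was not called with TSPAN7 IgA. NDUFC2 overlaps THRSP on the other strand and was not called with IgA or TSPAN7 IgA (-0.27 against IgG and -0.10 against untreated cells). MMAB overlaps MVK on the other strand and was lower with TSPAN7 IgA, at -0.31 ± 0.084 (SE), where MVK fell too. AKAP9 overlaps CYP51A1 and was at -0.27 ± 0.045. FADS1 and FADS2 overlap each other, and FADS2 overlaps FEN1.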

How the data were processed

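RNA was extracted with an RNeasy kit and libraries were made with an Ovation Human FFPE RNA-Seq kit. The deposited values are raw counts per gene. The authors trimmed reads (cutadapt 1.8.1 per the submitters' processing notes), aligned with STAR to GRCh37, and counted reads per gene. The counter is named differently in the sources (featureCounts or HTSeq 0.6.1), and use of strand is not given in the sources used here. In the table of the second series, exact repeats of other rows (2055) were dropped (1.99% to 2.46% of counts).

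Each series was fitted once over its 9 libraries by the quasi-likelihood F test of edgeR (version 4.0.16, R 4.3.3) after filterByExpr and TMM scaling, two-sided and with Benjamini-Hochberg adjustment over all genes tested, and genes were called at an adjusted p under 0.05. The authors used DESeq2, which is an alternative here (1.42.0), as are voom (limma 3.58.1), other scalings, no filter, leaving out mitochondrial genes or single libraries, and a replicate block. Deviations of same-numbered libraries correlated over 0.1 in 1 of 18 pairs, so numbers were not taken as pairs. Removing each library's trend with GC content and exon length was added after the data were seen. Replicates differed by more than sampling noise (chi-square per degree of freedom 3.91 to 232). Reads carry no molecular identifiers, so precision was taken from replicates.

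The members, the other lists and the rule for values by library (the 6 largest called changes of each comparison, with THRSP, INSIG1, SREBF1 and SREBF2) were chosen with earlier results of these data known. Positions are from GENCODE on GRCh37. Some genes of the lists are counted but not reported by name here.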

Additional observations from a re-analysis of the deposited data

Results flagged for a closer look

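In 13 genes every library with non-specific IgA lay above the untreated libraries of its series, while in the other series every library of at least 1 specific IgA lay below the untreated ones. Of the 17548 genes tested in both series 3.17% had this pattern and 3.13% its mirror image, against 41.9% and 0% of the 31. The opposite directions drew attention to these genes. The series were scaled and compared apart, so the difference between the responses was not tested, and antibody and series cannot be told apart. The values that follow are log2 fold changes against untreated cells.

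ACAT2 was at 0.73 with IgA, -0.22 with BDNF IgA and -0.23 with TSPAN7 IgA. For DHCR7 the values were 0.76, -0.17 and -0.38 in the same order. FDPS gave 0.51, -0.061 and -0.15. IDI1 gave 1.24, -0.35 and -0.39. INSIG1 gave 2.13, -0.20 and -0.23. MVD gave 1.18, -0.14 and -0.32. MVK gave 0.46, -0.41 and -0.48. NSDHL gave 0.38, -0.11 and -0.15. SQLE gave 0.96, -0.16 and -0.27. Of these, the fold changes of MVK and NSDHL with IgA were not called, nor were those of DHCR7, FDPS, INSIG1, MVD and NSDHL with BDNF IgA or that of NSDHL with TSPAN7 IgA.

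With TSPAN7 IgA alone below its untreated cells, FDFT1 was at 0.94 with IgA and -0.24 with TSPAN7 IgA, HMGCS1 was at 1.36 with IgA and -0.23 with TSPAN7 IgA, STARD4 was at 1.24 with IgA and -0.17 with TSPAN7 IgA, the last of these not called with TSPAN7 IgA. ACLY was at 0.82 with IgA and -0.14 with BDNF IgA, the latter not called.

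For 3 genes the specific antibodies differed from each other in the test within the second series, with fitted responses on different sides of 0. ACSL5 differed by -1.65 on the log2 scale, TM7SF2 by -0.65 and SREBF2 by -0.24. The response of SREBF2 to BDNF IgA was 0.01 ± 0.052 (SE) and that of TM7SF2 to TSPAN7 IgA -0.30 ± 0.10 (SE). Neither was called, so an opposite direction is not established for these genes, while both responses of ACSL5 were called. Groups of 3 libraries were not searched for single outlying values.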

How the results depend on the processing

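No called fold change of the 31 genes changed direction under any of the alternatives. The calls held under every alternative for 14 of 20 genes with IgA against IgG, 16 of 18 with IgA against untreated cells, 4 of 7 with BDNF IgA and, leaving out THRSP, 10 of 19 with TSPAN7 IgA and 4 of 8 between the specific antibodies. With library size scaling 6 genes in place of 3 were lower with IgA, against IgG and against untreated cells, as the median of all genes moved down with it. Of all 18012 genes 3631 and 3296 were then lower, in place of 2095 and 2187. The median of the members with IgA against IgG was then 0.27 in place of 0.52. With BDNF IgA, 8 genes in place of 5 were lower with DESeq2 and 8 with the GC and length trend removed, while 1 in place of 2 was higher with that trend removed and 1 when only the 6 libraries compared were fitted. Of all genes, 767 of the 13647 with an adjusted p were lower with DESeq2. With the trend removed 714 of 18732 were lower, against 596 in the main fit. Voom called 1 gene higher with TSPAN7 IgA than with BDNF IgA, where edgeR called 0. Over all 18732 genes voom called 1319 higher and edgeR 641. The cause of these differences was not tested, beyond the fewer libraries of the last fit.

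When single libraries were left out, the number of genes lower with IgA than with IgG ranged from 1 to 3, the lowest without IgG replicate 2. With BDNF IgA 1 or 2 genes were higher and 3 to 5 lower. With TSPAN7 IgA 12 to 20 were lower than in untreated cells, and against BDNF IgA 6 to 15 were lower and 0 or 1 higher, counts that include THRSP (11 to 19 and 5 to 14 without it). The number of all genes called lower moved in these refits too. It ranged from 1227 to 2766 with IgA against IgG and from 293 to 1293 with BDNF IgA. With TSPAN7 IgA it ranged from 328 to 682 against untreated cells and from 286 to 1722 against BDNF IgA. The median of the members with IgG against untreated cells ranged from -0.11 without untreated replicate 3 to 0.04 without IgG replicate 3, around -0.038 with all libraries. Leaving out 1 library ended the call of MVK (5 of 6 libraries, adjusted p up to 0.16), CYP51A1 (4, up to 0.12), NSDHL (4, up to 0.11), SREBF1 (IgG replicates 2 and 3, up to 0.063), TM7SF2 (IgG replicate 2, 0.055) and FDPS (IgG replicate 3, 0.058) with IgA against IgG, and of FDPS (4, up to 0.11) and CYP51A1 (untreated replicates 2 and 3, up to 0.088) against untreated cells. With BDNF IgA it ended those of SQLE (any of the 6, up to 0.16), TM7SF2 (5, up to 0.24) and ACAT2 (3, up to 0.11). With TSPAN7 IgA against untreated cells it ended those of FDPS (5, up to 0.14), EBP (4, up to 0.095), SREBF1 (4, up to 0.12), INSIG1 (4, up to 0.21), FASN (4, up to 0.15), SREBF2 (3, up to 0.062), ACAT2 (2, up to 0.082), MVD (2, up to 0.066) and FADS1 (2, up to 0.051). Between the specific antibodies it ended those of HMGCS1 (5, up to 0.25), FADS1 (4, up to 0.14), SREBF2 (2, up to 0.057) and FADS2 (TSPAN7 IgA replicate 2, 0.06).

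Deviations of same-numbered libraries correlated at -0.069 to 0.247 over 9 pairs in the first series, 1 of them over 0.1 (untreated and IgG replicate 3), and at -0.017 to 0.089 in the second. Untreated replicate 2 correlated best with IgG replicate 1 (0.143), not with its own number. With the replicate number as a block, 17 genes were higher and 3 lower with IgA against IgG, 15 and 3 against untreated cells, 2 and 6 with BDNF IgA, 0 and 20 with TSPAN7 IgA, and 0 and 9 between the specific antibodies, THRSP included in the last pair of comparisons. The wider spread of the first series limits it to larger changes than the second.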
